A study of Homo sapiens with 12 samples.

Results

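The genes described here encode 10 proteins of the BCL2 family, taken by symbol from the 56269 genes of the deposited count table of HEYA8 cells, a human ovarian cancer cell line. The 10 genes were BCL2, BCL2L1, MCL1 and BCL2L2, which encode survival proteins, BAK1, which encodes a pore former, and BCL2L11, BID, BAD, PMAIP1 and BBC3, which encode the BH3-only proteins BIM, BID, BAD, NOXA and PUMA. All 10 had enough reads in the 12 libraries to be tested, as did 16069 genes in all. The study asked what the glycosaminoglycan chains of betaglycan, a TGF-β co-receptor encoded by TGFBR3, do in these cells. Each of 4 groups had 3 libraries, namely a Control Vector, ∆GAG (both chain-bearing serines of betaglycan changed to alanine, so that it carries no chain), S534A (only the first of these serines changed, called the chondroitin sulfate form) and S545A (only the other changed, called the heparan sulfate form). All cells were grown in RPMI-1640 with serum, a condition that the labels call resting, and the labels name no ligand or drug. The betaglycan constructs were carried by a lentivirus with a dTomato marker and infected cells were sorted on that marker, so that they are sorted populations, not clones, which still have the betaglycan gene of HEYA8. The labels do not say whether the 3 libraries of a group came from separate cultures, and p-values measure only the spread between these libraries.

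Proteins of the BCL2 family decide whether the outer mitochondrial membrane is opened, the step that commits a cell to apoptosis. BAK and BAX form the pore, the survival proteins hold them and the BH3-only proteins in check by gripping a short helix called BH3, and the BH3-only proteins, made or activated under stress, either occupy that grip or activate BAK and BAX directly. Many carcinomas lean on MCL1 and BCL-XL, the product of BCL2L1. Much of the control of these proteins is through phosphorylation, cleavage and protein decay, which an mRNA level does not show.

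The BH3 helix is the feature that places these genes in 1 family, and the coding bases for it are shown for the 6 members to which the results return most often. Each stretch has 39 bases of a coding exon, read 5′ to 3′ on the strand of the gene in GRCh38, and the capitals mark the codon of the conserved hydrophobic residue (leucine in these 6) and that of the conserved aspartate.
MCL1 (chr1:150578868-150578906, minus strand): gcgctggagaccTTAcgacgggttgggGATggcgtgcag
BCL2L1 (chr20:31721925-31721963, minus strand): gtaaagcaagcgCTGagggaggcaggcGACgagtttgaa
BAK1 (chr6:33575390-33575428, minus strand): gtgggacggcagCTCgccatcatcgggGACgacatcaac
BID (chr22:17739418-17739456, minus strand): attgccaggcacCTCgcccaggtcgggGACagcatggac
BAD (chr11:64271625-64271663, minus strand): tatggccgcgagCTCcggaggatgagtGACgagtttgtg
BBC3 (chr19:47226582-47226620, minus strand): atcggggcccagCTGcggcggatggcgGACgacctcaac
BAK1 and BID, a pore former and a BH3-only gene, shared 25 of the 39 bases, whereas MCL1 and BAD shared 12.

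The libraries held 16410001 to 29504297 counts each. Levels are given as CPM (counts scaled to the size of the library) after scaling with TMM factors, and comparisons between genes as the same value per kilobase of exon (RPKM). TGFBR3 stood at 15.9, 259 and 259 CPM in libraries 1, 2 and 3 labelled Control Vector and at 260, 20.3 and 21.4 CPM in those labelled ∆GAG, against 413 to 574 CPM in the 6 S534A and S545A libraries. Libraries 2 and 3 of these 2 labels thus go against what the constructs predict, and every direction that involves them rests on the labels as given. Libraries 2 and 3 of S545A, ∆GAG and Control Vector were also far closer to each other than other libraries of 1 group, their chi-square statistic over genes, divided by its degrees of freedom, being 1.40 to 1.99 in these 3 pairs and 17.4 to 77.9 in the other 9 pairs of a group. Endoplasmic reticulum stress genes stood apart in ∆GAG 1, where 12 of them summed to 18860 CPM, and were lowest in S534A 2, at 1149 CPM. Of the markers of an ovarian carcinoma or epithelial cell, PAX8 stood at 193 to 295 CPM and KRT8 at 688 to 1007 CPM, EPCAM reached at most 1.76 CPM and MUC16, which encodes CA-125, had no count in any of the 12 libraries. VIM, a mesenchymal marker, stood at 2343 to 3132 CPM, and in S534A against ∆GAG its log2 fold change was -0.20 (edgeR, unadjusted p = 0.0453, adjusted p = 0.89), the only marker past an unadjusted 0.05 among the 6 epithelial, 2 mesenchymal and 3 endothelial ones tested. The 3 leukocyte markers summed to at most 0.136 CPM and CD3E had no count, whereas of the 3 endothelial markers CDH5 stood at 168 to 431 CPM beside at most 0.768 CPM of PECAM1 and 14.9 CPM of VWF. Since these are bulk libraries, fewer cells of a kind and less RNA per cell cannot be told apart.

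Of the 10 genes, MCL1 had the most mRNA per kilobase of exon in all 12 libraries and BCL2 the least. MCL1 had 193 ± 18.8 RPKM (SD, n = 12) and BCL2L1 60.2 ± 9.29 RPKM, followed by PMAIP1 with 22.4 ± 2.96 RPKM. Each of these 3 exceeded the next gene in 12 of 12 libraries. The middle of the order was crowded. BCL2L2 (10.99 ± 0.752 RPKM) exceeded BAK1 (10.4 ± 0.418 RPKM) in 8 of 12 libraries, BBC3 (8.55 ± 2.17 RPKM) exceeded BID (7.83 ± 1.104 RPKM) in 7 of 12, and BID exceeded BAD (7.60 ± 0.547 RPKM) in 6 of 12, so that these neighbours did not differ beyond their spread. BAK1 exceeded BBC3 in 11 of 12 libraries. BCL2L11 (1.13 ± 0.175 RPKM) and BCL2 (0.847 ± 0.115 RPKM) lay well below the others, and BCL2L11 exceeded BCL2 in 12 of 12 libraries.

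As a share of the RPKM summed over the 10 genes, MCL1 took 54.6% to 65.6%, BCL2L1 14.5% to 23.3%, PMAIP1 4.98% to 8.13% and BCL2 0.156% to 0.321%. The 4 survival genes summed to 248 to 293 RPKM and the 5 BH3-only genes to 42.2 to 54.8 RPKM. The ratio of the second sum to the first ran from 0.156 in the library labelled Control Vector 1 to 0.191 in S534A 3. This ratio compares mRNA only, and each gene counts in it by its level. MCL1 made up 67.0% of the survival sum in S545A 3, the lowest share, and 78.5% in Control Vector 1, the highest. Exons of other genes overlap part of the exon length of most members, from 0.0458% for MCL1 up to 43% for BCL2L1. How reads from the shared parts were counted is not stated, and the effect on the order and the shares was not tested. BAX, the partner of BAK1 in pore formation, had 71.2 ± 2.70 RPKM against the 10.4 RPKM of BAK1.

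**Figure D1:**
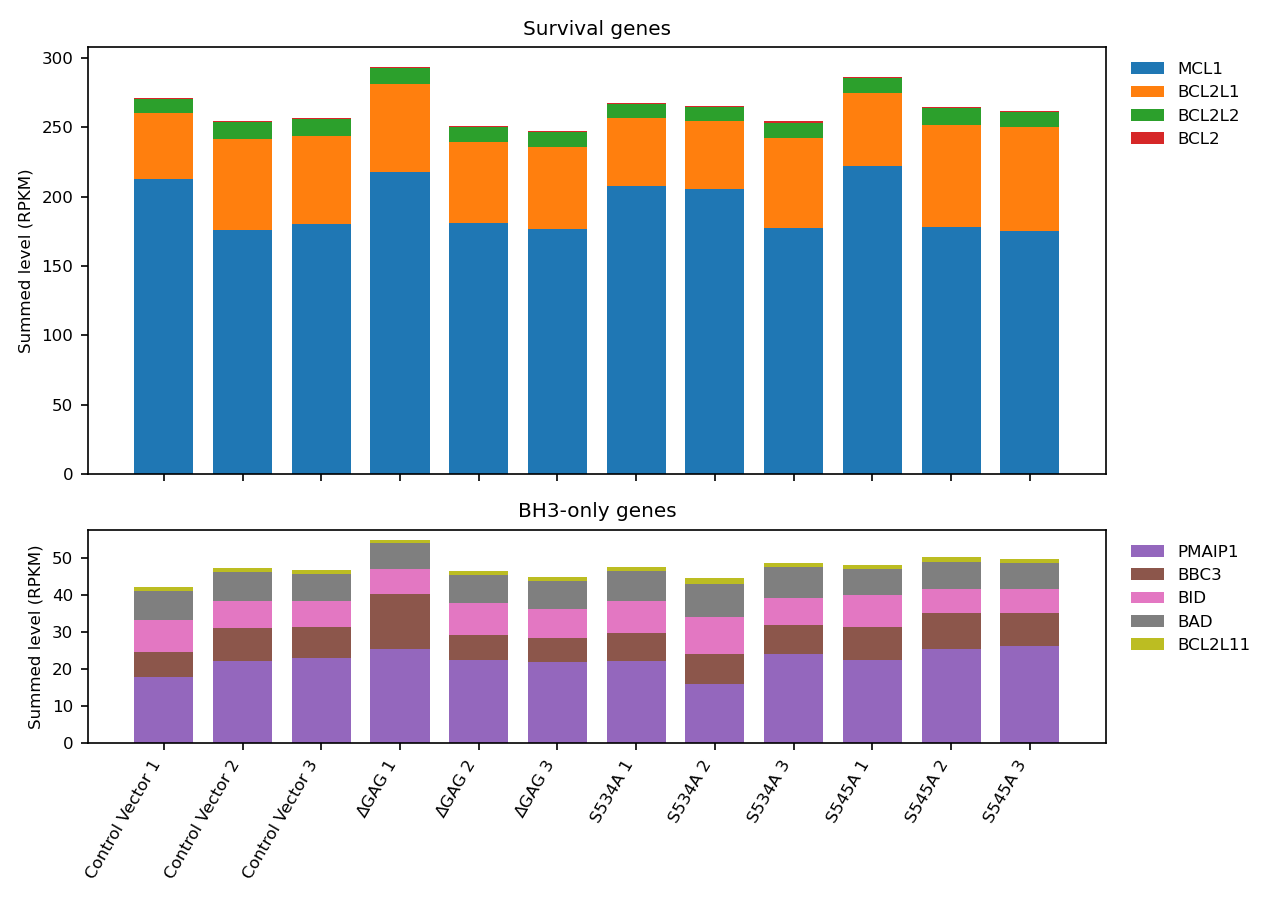
Stacked levels per kilobase of exon (RPKM, vertical axes) of the 4 survival genes (upper panel) and the 5 BH3-only genes (lower panel, with its own scale) in each of the 12 libraries. MCL1 fills most of every upper bar and BCL2 is barely visible, and ∆GAG 1 has the highest bar in both panels, at 293 and 54.8 RPKM.

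No member of the family passed the test between genotypes, as was true of every gene. Of the 10 genes, 0 had an adjusted p under 0.05 (edgeR quasi-likelihood test, Benjamini-Hochberg over 16069 genes) in any of the 6 comparisons, where the share of all genes that did was 0% each time. DESeq2 and limma-voom also gave 0 of 10 in each. These counts equal the background and say nothing particular to the family. The log2 fold changes of the members ran from -0.28 to 0.31 over the 6 comparisons. At an unadjusted p under 0.05, the count was 0 of 10 in S534A against ∆GAG (2.99% of all genes), in S545A against ∆GAG (1.1%), in ∆GAG (0.871%), S534A (3.45%) and S545A (1.05%), each against Control Vector, and 1 of 10, BAD, in S545A against S534A (4.78%). The median log2 fold change of the members lay between -0.03 and 0.03 in all 6, beside medians of -0.01 to 0.01 for all genes tested. The median size of the change, sign dropped, was largest in S545A against S534A, at 0.20 for the members and 0.15 for all genes. In S534A against ∆GAG these were 0.16 and 0.13. With 3 libraries against 3 the exact permutation test of a single gene cannot go below p = 0.1, the value it gave wherever groups did not overlap. The common biological coefficient of variation of the fit was 0.163.

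**Figure D2:**
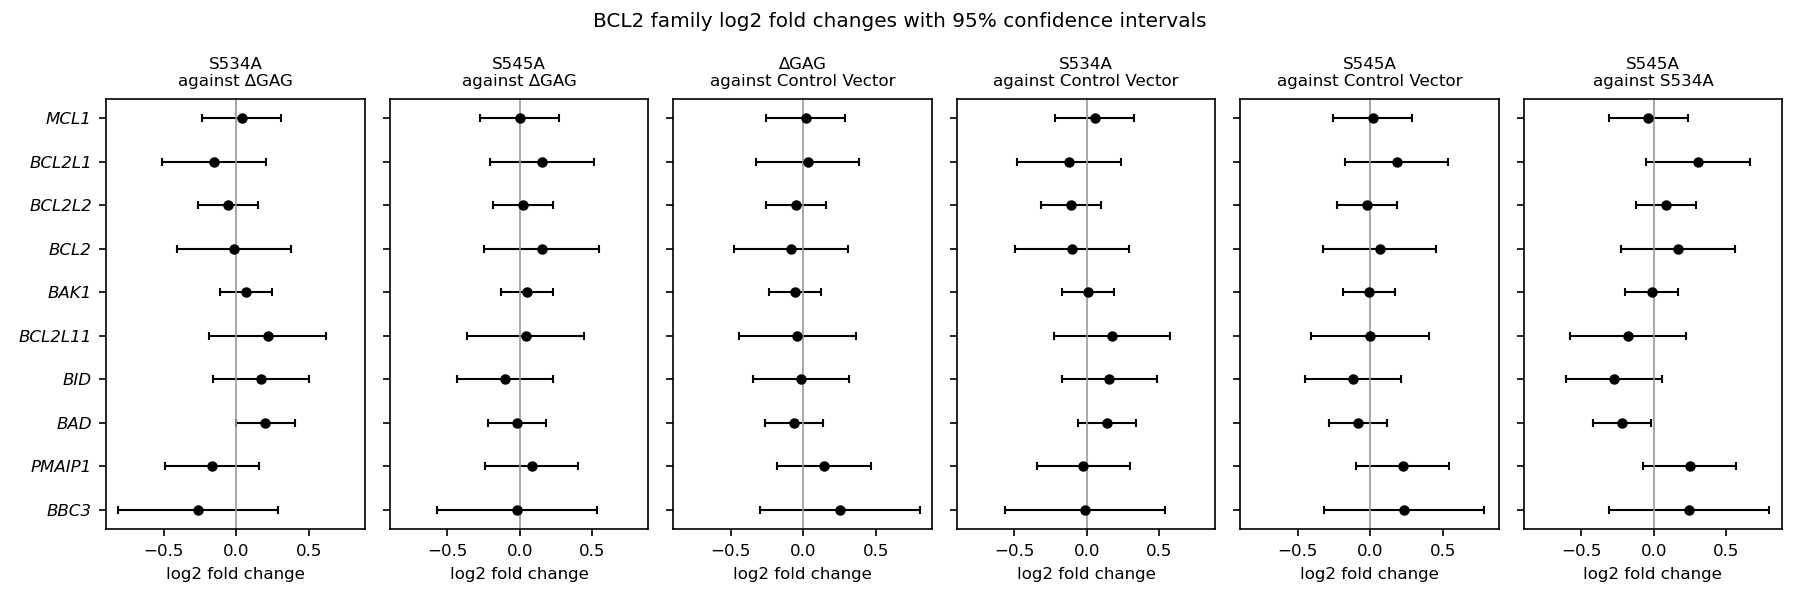
Log2 fold change of each of the 10 genes (points, horizontal axis) with its 95% confidence interval (bars) in the 6 comparisons between genotypes, 3 libraries a group. All points lie between -0.28 and 0.31, and the interval of 1 point, BAD in S545A against S534A, does not reach 0.

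MCL1, whose short-lived product guards BAK, lies on chromosome 1 from 150574551 to 150579738. It had 931, 769 and 787 CPM in the libraries labelled Control Vector, 952, 791 and 774 in those labelled ∆GAG, 907, 899.8 and 776 in S534A and 972, 778 and 768 in S545A. The values fell into 2 ranges that the genotypes did not follow, 899.8 to 972 CPM in 5 libraries (replicate 1 of every group and S534A 2) and 768 to 791 CPM in the other 7. All 4 groups overlapped. Of the variance of its log2 level over the 12 libraries, 2.56% lay between groups, beside a median of 20.8% over all genes tested. The log2 fold changes ran between -0.04 and 0.06, and in S545A against ∆GAG the 95% interval was -0.27 to 0.27 (edgeR, adjusted p = 1).

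BCL2L1, the gene of BCL-XL, lies on chromosome 20 from 31664452 to 31723989. Its levels were 156, 218 and 212 CPM in Control Vector, 210, 195 and 195 in ∆GAG, 162, 163 and 215 in S534A and 175, 244 and 248 in S545A. The 2 highest libraries were S545A 2 and 3, but S545A 1 lay below all 3 of ∆GAG, and the groups overlapped. In S545A against S534A the log2 fold change was 0.31 (SE 0.164, 95% interval -0.05 to 0.66, edgeR adjusted p = 0.70), the highest of any member in any comparison. Leaving out S545A 1 made it 0.46 and leaving out S534A 3 made it 0.45, with unadjusted p-values of 0.0122 and 0.0204 and adjusted p-values of 0.415 and 0.305. In these fits the share of all genes with an unadjusted p under 0.05 was also higher, 12% and 15.8% against 4.78%. The fit without S545A 1 left only the nearly alike S545A 2 and 3 in that group. Leaving out S545A 3 instead made the BCL2L1 change 0.22. Exons of an antisense gene, ABALON, overlap 43% of its exon length. That gene had 51 to 82 counts, against 3536 to 7257 for BCL2L1.

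The 4 libraries with the least BCL2L1 were Control Vector 1, S534A 1, S534A 2 and S545A 1, and all 4 were among the 5 with high MCL1. The fifth, ∆GAG 1, had high MCL1 and 210 CPM of BCL2L1. The source of these differences between libraries of 1 group was not tested.

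BCL2L2, which encodes BCL-w, spans 23298790 to 23311759 of chromosome 14. It ranged from 42.6 CPM in S534A 2 to 51.6 CPM in S545A 2, a ratio of 1.21, and all groups overlapped. Its log2 fold changes ran from -0.11 in S534A against Control Vector to 0.08 in S545A against S534A. A readthrough gene, BCL2L2-PABPN1, shares 19.4% of its exon length on the same strand, with 2 to 10 counts of its own, and reads from the shared part cannot be assigned.

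BCL2, the founding gene of the family, spans 63123346 to 63320128 of chromosome 18. It had 9.93, 10.5 and 10.1 CPM in Control Vector, 6.58, 10.7 and 11.4 in ∆GAG, 10.6, 8.01 and 9.89 in S534A and 10.8, 10.3 and 10.8 in S545A. S545A was the tightest group, and the lowest and the highest library of the 12 both carried the ∆GAG label. Its counts were 145 to 315 a library. Its log2 fold change in S545A against ∆GAG, 0.15 (SE 0.181, edgeR adjusted p = 1), became -0.05 without ∆GAG 1, and that in ∆GAG against Control Vector went from -0.09 to 0.12.

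BAK1, the pore former, spans 33572547 to 33580293 of chromosome 6 and was the steadiest member. All 12 libraries lay between 22.0 and 24.5 CPM, and 0.653% of the genes tested had a smaller ratio of highest to lowest library than its 1.11. The group means were 23.3 ± 1.14 CPM in Control Vector, 22.4 ± 0.382 in ∆GAG, 23.4 ± 0.921 in S534A and 23.2 ± 1.195 in S545A (SD, n = 3 each). In S545A against S534A the 95% interval of its log2 fold change was -0.19 to 0.17. BAX was nearly as steady, at 175 to 200 CPM (199.7 CPM at the most) and log2 fold changes between -0.03 and 0.02.

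**Figure D3:**
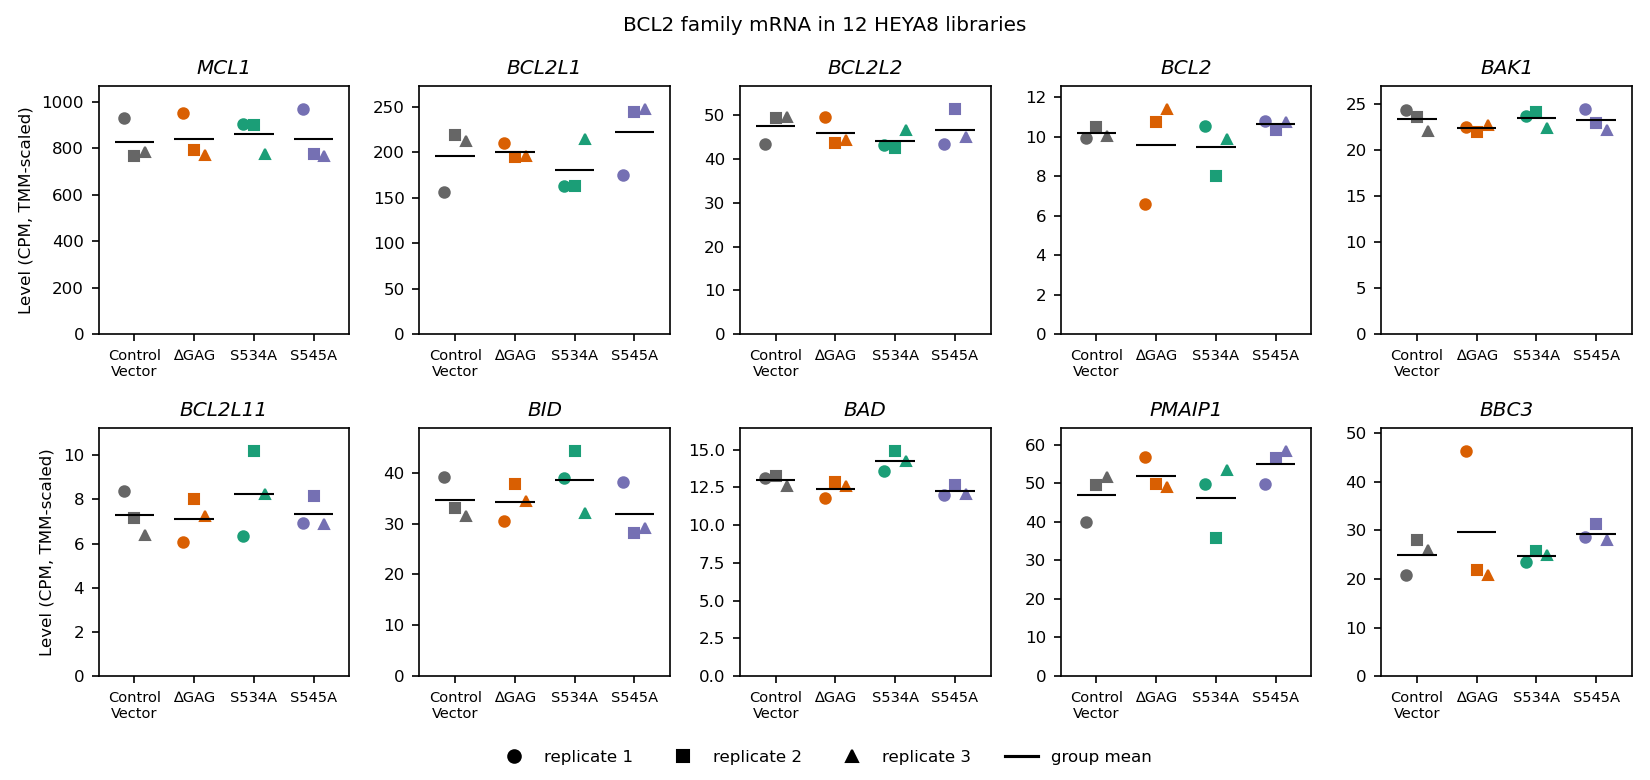
Level of each of the 10 genes (CPM, TMM-scaled, vertical axes from 0) in every library, by genotype, with symbols for the replicate and a line at the mean of each group. BAK1 lies between 22.0 and 24.5 CPM throughout, the 3 S534A libraries are highest for BAD, and ∆GAG 1 stands alone for BBC3 at 46.5 CPM.

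BCL2L11 encodes BIM, an activator that FOXO factors induce when growth factor signals fall. It spans 111119378 to 111168447 of chromosome 2. Its levels were 8.37, 7.16 and 6.38 CPM in Control Vector, 6.08, 8.04 and 7.23 in ∆GAG, 6.33, 10.2 and 8.25 in S534A and 6.94, 8.13 and 6.90 in S545A. The groups overlapped, and the S534A libraries alone nearly covered the range of all 12. In S534A against ∆GAG the log2 fold change was 0.22 (SE 0.185, edgeR adjusted p = 0.89). Exons of MIR4435-2HG, on the opposite strand, cover 10.9% of its exon length and had 1380 to 2520 counts, against 134 to 306 for BCL2L11.

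BID, the member that caspase-8 cleaves to link death receptors to mitochondria, spans 17734138 to 17774770 of chromosome 22. It had 39.2, 33.1 and 31.5 CPM in Control Vector, 30.5, 37.8 and 34.5 in ∆GAG, 39.1, 44.4 and 32.0 in S534A and 38.2, 28.2 and 29.2 in S545A. The 4 highest were Control Vector 1, S534A 1, S534A 2 and S545A 1, the 4 libraries that were lowest for BCL2L1. In S545A against S534A the log2 fold change was -0.28 (SE 0.151, 95% interval -0.61 to 0.06, edgeR adjusted p = 0.70). Leaving out S545A 1 made it -0.42 (edgeR adjusted p = 0.415) and leaving out S534A 3 made it -0.39 (edgeR adjusted p = 0.305). In these fits 12% and 15.8% of all genes had an unadjusted p under 0.05, and the first left only the nearly alike S545A 2 and 3. Leaving out S534A 2 instead made the BID change -0.16.

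BAD, a sensitizer that survival kinases hold inactive by phosphorylation and that binds BCL-XL, BCL-w and BCL2, spans 64269830 to 64284704 of chromosome 11. Its 3 S534A libraries were the highest of the 12, at 13.6, 15.0 and 14.3 CPM. The libraries labelled Control Vector had 13.1, 13.2 and 12.6 CPM, those labelled ∆GAG 11.8, 12.9 and 12.6 CPM, and those of S545A 12.02, 12.7 and 12.1 CPM. S534A did not overlap any other group, and the other 3 groups overlapped one another. The means were 14.3 ± 0.667 CPM in S534A, 13.0 ± 0.365 in Control Vector, 12.4 ± 0.561 in ∆GAG and 12.3 ± 0.377 in S545A (SD, n = 3 each).

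The difference in BAD was small. Against ∆GAG, BAD in S534A had a log2 fold change of 0.20 (SE 0.0924, a ratio of means of 1.15, 95% interval 0.00 to 0.40), with an unadjusted p of 0.0502 and an adjusted p of 0.89 by edgeR. Against Control Vector it was 0.14 (SE 0.0919), with an unadjusted p of 0.163 and an adjusted p of 0.87. S545A against S534A gave -0.22 (SE 0.0921, 95% interval -0.42 to -0.02), with an unadjusted p of 0.0338 and an adjusted p of 0.70. These 3 comparisons share the S534A libraries and are not independent. Groups did not overlap for 1 of 10 members in S534A against ∆GAG, where 5.66% of all genes did not, for 1 of 10 in S534A against Control Vector (7.65%) and for 2 of 10 in S545A against S534A (10.1%). None of the 10 was free of overlap in S545A against ∆GAG (5.05% of all genes), ∆GAG against Control Vector (4.87%) or S545A against Control Vector (8.82%).

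Of the variance in the log2 level of BAD, 78.1% lay between groups, more than for 99.8% of the genes tested, and the next member was PMAIP1 with 29.9%. This share describes the 4 groups at once and was not tested. The unadjusted p of S545A against S534A rose above 0.05 in 5 of the 6 fits that left out 1 library of these groups, to 0.0718 without S534A 2, the library with most BAD. BAD had 235 to 448 counts a library. Exons of GPR137, on the opposite strand, overlap 23.7% of its exon length, and whether reads were counted by strand is not stated. GPR137 had 19.2, 29.2 and 21.7 CPM in S534A and 16.8 to 20.8 CPM in the other 9 libraries, so that it was also highest in S534A 2. Its log2 fold change in S534A against ∆GAG was 0.32 (unadjusted p = 0.0493, adjusted p = 0.89 by edgeR), and its part in the BAD result was not tested.

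PMAIP1 encodes NOXA, which binds MCL1 and is a target of p53 and of the integrated stress response. It spans 59899948 to 59904306 of chromosome 18. Its levels were 40.0, 49.4 and 51.6 CPM in Control Vector, 56.9, 49.9 and 49.0 in ∆GAG, 49.7, 35.7 and 53.5 in S534A and 49.8, 56.4 and 58.5 in S545A. S534A 2 was the lowest library and S545A 3 the highest, while the groups overlapped. The log2 fold change of S545A against S534A was 0.25 (SE 0.148, edgeR adjusted p = 0.70) and became 0.09 without S534A 2 and 0.36 without S534A 3. S545A against Control Vector gave 0.23 (SE 0.148, unadjusted p = 0.153, adjusted p = 1 by edgeR).

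Same-numbered libraries of S545A and Control Vector deviated together. Libraries 2 and 3 of each group were nearly alike, so this reflects how library 1 differed from them. It does not show that libraries 2 and 3 are pairs by number. Matched by number, PMAIP1, BCL2L1 and BBC3 were higher in S545A each time and BID and BAD lower each time. Thus 5 of the 10 members kept 1 direction, as did 39.3% of all genes, with matches 2 and 3 close to repeats of each other. With the replicate number as a block, the edgeR log2 fold changes were 0.23 for PMAIP1 (unadjusted p = 0.16), 0.18 for BCL2L1 (0.217), 0.23 for BBC3 (0.409), -0.12 for BID (0.43) and -0.08 for BAD (0.363), all with an adjusted p of 1.

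BBC3 encodes PUMA, which binds every survival protein and is induced by p53 and, under endoplasmic reticulum stress, by CHOP, the product of DDIT3. It spans 47220822 to 47232766 of chromosome 19. It had 20.8, 28.1 and 25.9 CPM in Control Vector, 46.5, 21.8 and 20.7 in ∆GAG, 23.5, 25.8 and 24.9 in S534A and 28.7, 31.3 and 28.1 in S545A. One library, ∆GAG 1, held 2.18 times the mean of ∆GAG 2 and 3, and the highest of the other 11 libraries had 31.3 CPM. All 3 S545A libraries lay above all 3 of S534A, by a log2 fold change of 0.24 (SE 0.253, edgeR adjusted p = 0.76).

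The direction of BBC3 in each comparison with ∆GAG depended on ∆GAG 1. In S545A against ∆GAG its log2 fold change was -0.02 (SE 0.252, edgeR adjusted p = 1), and without ∆GAG 1 it was 0.47, with an unadjusted p of 0.00292 and an adjusted p of 0.73, in a fit where 5.55% of all genes had an unadjusted p under 0.05. S534A against ∆GAG went from -0.26 to 0.22 (unadjusted p = 0.0967) and ∆GAG against Control Vector from 0.25 to -0.24 (unadjusted p = 0.0802). No adjusted p passed 0.05 with or without that library. Without it, the ∆GAG group was libraries 2 and 3 alone, the nearly alike pair with little TGFBR3 (chi-square per degree of freedom 1.99). The p-values of these fits thus measure the spread of a group of 2 near-repeats.

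Stress genes moved with BBC3 in ∆GAG 1. DDIT3 stood at 208 CPM there against 6.92 and 7.68 CPM in ∆GAG 2 and 3, and HSPA5, a chaperone of the endoplasmic reticulum, at 11860 CPM against 1256 and 1228. TRIB3 was 3.42 times and PPP1R15A 2.91 times the mean of ∆GAG 2 and 3. Of the 12 genes of that stress list, 10 stood above 2 times that mean, with a median of 4.55 times. Of the 12 p53 targets 2 did, GDF15 at 5.10 times and SESN2 at 3.05 times, and the median was 1.16 times, with CDKN1A at 1.38 times. Both lists were written with earlier results of these data known, in which HSPA5 and DDIT3 stood apart in 1 library. The share of all genes above 2 times that mean was not counted, so these counts only describe ∆GAG 1. In Control Vector, libraries 2 and 3 had 27.2 and 26.1 CPM of DDIT3 against 5.12 CPM in library 1, and they were also the higher ones for BBC3, at 28.1 and 25.9 against 20.8 CPM. In S545A the order differed. S545A 2 and 3 had 44.8 and 47.2 CPM of DDIT3 against 8.96 CPM in S545A 1, while their BBC3 levels were 31.3 and 28.1 against 28.7 CPM. In ∆GAG 1, MCL1 was 1.22 times and BCL2, which CHOP is known to repress, 0.593 times the mean of ∆GAG 2 and 3. In every other group too, library 1 was the highest for MCL1, while there it was the lowest for DDIT3. BCL2 differed little between the libraries with more and with less DDIT3 in Control Vector and S545A. It had 10.5 and 10.1 CPM in Control Vector 2 and 3 against 9.93 in library 1. In S545A 2 and 3 it had 10.3 and 10.8 CPM against 10.8 in S545A 1. BCL2L11 was also low in ∆GAG 1, at 6.08 CPM against 8.04 and 7.23 in ∆GAG 2 and 3. The part of these stress genes in the BBC3, BCL2 and BCL2L11 values was not tested, and 1 library has no replicate check.

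**Figure D4:**
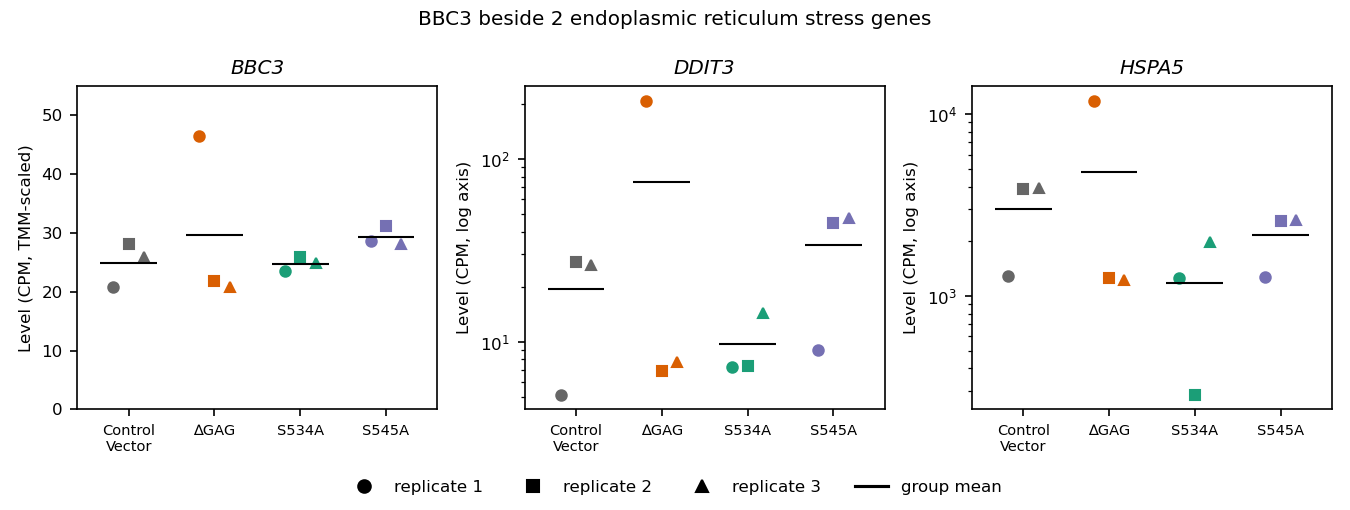
Levels of BBC3 (CPM, linear axis from 0), DDIT3 and HSPA5 (CPM, log axes) in every library by genotype, with symbols for the replicate and a line at the mean of each group. ∆GAG 1 is the highest library in all 3 panels, at 46.5, 208 and 11860 CPM, and S545A 2 and 3 are above S545A 1 for DDIT3 and HSPA5 but not both for BBC3.

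Counting the lowest and the highest library of each gene, S534A 2 and ∆GAG 1 held 9 of the 20 extremes, and no other library held more than 3. Their share of the extremes over all genes was not counted, so this is not a trait shown to be particular to the family. Both were far from every other library over all genes. The chi-square per degree of freedom was at least 62.1 for S534A 2 and at least 35.4 for ∆GAG 1. S534A 2 was the lowest or the highest of the 12 libraries for 5 members (highest for BAD, BCL2L11 and BID, lowest for BCL2L2 and PMAIP1), and ∆GAG 1 for 4 (highest for BBC3, lowest for BAD, BCL2 and BCL2L11). The ratio of the highest to the lowest library was 1.11 for BAK1, 1.21 for BCL2L2 and 1.27 for MCL1 and BAD. It was 1.57 for BID, 1.58 for BCL2L1, 1.64 for PMAIP1, 1.68 for BCL2L11, 1.74 for BCL2 and 2.24 for BBC3. Over all genes tested its median was 1.65, so 7 of the 10 members varied less than the median gene.

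Genes that act beside the family gave few calls, none with an adjusted p under 0.05 by edgeR. Of 13 other BCL2 family genes 10 were tested, and 1 had an unadjusted p under 0.05 in any comparison, BCL2L13, a mitophagy receptor, which stood at 63.1, 71.0 and 68.9 CPM in S545A and 59.9, 51.5 and 63.0 CPM in S534A (log2 fold change 0.22, adjusted p = 0.70). Of 23 genes of mitochondrial release and the caspases, all tested, 1 was past that threshold in any comparison. This was DIABLO, which encodes the antagonist of the inhibitor of apoptosis proteins, with 3.02, 3.09 and 3.86 CPM in S545A and 4.30, 5.57 and 4.19 CPM in S534A (log2 fold change -0.50, adjusted p = 0.70). None of 10 genes of death receptors and their adaptors was past it in any comparison. The share of all genes past it in S545A against S534A was the 4.78% given above.

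Regulators of the family also gave few calls. Of 13, all tested, 2 had an unadjusted p under 0.05 by edgeR, each in 1 comparison. These were DDIT3 in S534A against ∆GAG (2.99% of all genes) and TP73 in S545A against S534A (4.78%). DDIT3 in S534A against ∆GAG had a log2 fold change of -2.97 (SE 1.21, edgeR adjusted p = 0.89), and its 208 CPM in ∆GAG 1 stood far above the other libraries. TP73, a relative of p53, had 2.83, 1.96 and 1.57 CPM in S545A and 2.95, 5.71 and 2.55 CPM in S534A (log2 fold change -0.84, edgeR adjusted p = 0.70). Among 12 p53 targets, 1 was past that threshold, BTG2, an antiproliferative gene, in 2 comparisons of S534A. Against ∆GAG its log2 fold change was 0.49 (edgeR adjusted p = 0.89, beside 2.99% of all genes). Against Control Vector it was 0.50 (edgeR adjusted p = 0.87, beside 3.45% of all genes). The 18.5 CPM of BTG2 in S534A 2 stood against 7.40 to 11.1 CPM in the other 11 libraries. Among 12 endoplasmic reticulum stress genes, 5 were past it in S534A against ∆GAG (DDIT3, PDIA4, HERPUD1, HSPA5 and SDF2L1, beside 2.99% of all genes), with lower means in S534A. The groups overlapped for all 5, and the size of these differences rested on ∆GAG 1. Without it, the S534A mean stayed below the remaining ∆GAG libraries for HSPA5, HERPUD1 and PDIA4, but above them for DDIT3 and SDF2L1. DDIT3 then had 6.92 and 7.68 CPM in ∆GAG against 7.25, 7.38 and 14.4 CPM in S534A. HSPA5 had 1256 and 1228 CPM against 1250, 287 and 1985 CPM.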

How the data were processed

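HEYA8 libraries (3 for each of 4 genotypes, total RNA) were sequenced by the authors, who deposited raw read counts per gene from featureCounts after FastQC and Trim Galore 0.4.5. The submitters' processing notes also name STAR 2.4, SAMtools 1.2 and a mouse build (mm10), but the deposited counts are for human genes, and all 10 members have the same spans as in GENCODE release 29 (GRCh38). The labels name a directional kit, and the strand setting of the counting is not given in the sources used here. The title of 1 S545A library ends in another letter, and its genotype label was used. No count fell on the 37 mitochondrial genes.

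Counts were fitted with edgeR 4.0.16 in R 4.3.3 (filterByExpr with a minimum of 10, TMM, robust quasi-likelihood fit, 1 model of the 4 groups without a block). Exact permutation tests were two-sided on log2(CPM + 1). RPKM used the exon lengths of the deposited table. The BH3 stretches were found in coding sequence of the annotation by their conserved residues, with the later of 2 matches taken in BID. For counting error only, a count of 0 allows up to 3 counts, or 0.1 to 0.182 CPM in these libraries. The script was tested on simulated data.

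Same-numbered libraries of S545A and Control Vector deviated together (correlations of 0.732, 0.48 and 0.481 over genes) and were compared by number. Since libraries 2 and 3 of each group were nearly alike, these correlations cannot show that the libraries are pairs. In the other 5 comparisons at least 1 pair was below 0.1. Alternatives were DESeq2 1.42.0, limma 3.58.1 (voom), other scaling and filters, 2 groups only, a replicate block, each library left out, and libraries 2 and 3 summed. All 10 members were named by rule, and of the other lists genes with an unadjusted p under 0.05 plus BAX, DDIT3, HSPA5 and TGFBR3. CDKN1A, GDF15, SESN2, TRIB3, PPP1R15A and GPR137 were named after their values were seen. The members and lists were chosen with earlier results of these data known.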

Additional observations from a re-analysis of the deposited data

How the results depend on the processing

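The count of members with an adjusted p under 0.05 was 0 under all 90 combinations of alternative and comparison, with a lowest adjusted p of 0.305. Over all genes, DESeq2 called 5 genes between S534A and ∆GAG, 2 between S534A and Control Vector and 1 between the single mutants, limma-voom and edgeR without a filter 1 in each of these 3, and every other edgeR fit 0. Of 900 alternative log2 fold changes of members, 878 stayed on their side of an unadjusted p of 0.05 (uncalled values that changed sign included), 13 passed it, 8 no longer did, and 1 turned its sign while passing it, BBC3 in S545A against ∆GAG, from -0.02 to 0.47 without ∆GAG 1. Of the 13, 5 came from fits without S534A 3 or S545A 1, in which 15.8% and 12% of all genes had an unadjusted p under 0.05 between S545A and S534A, against 4.78%. With a replicate block, BAD in S534A against ∆GAG had a log2 fold change of 0.20 (unadjusted p = 0.0482), also past 0.05 with limma-voom, DESeq2-style factors, library size only, at least 10 counts in every library and without S534A 1. The block changed no other call, and libraries that share only a number are not known to be pairs. BAD in S545A against S534A lost its unadjusted edgeR call without a filter (-0.23), with only these 2 groups fitted (-0.22) and with libraries 2 and 3 summed (-0.23). In S545A against S534A, BCL2L1 passed an unadjusted 0.05 by edgeR without a filter (0.30) and BBC3 with only 2 groups fitted (0.24). Leaving out 1 library gave -0.25 to -0.18 for BAD, 0.22 to 0.46 for BCL2L1, -0.42 to -0.16 for BID and 0.09 to 0.36 for PMAIP1. The causes were not tested. As a share of CPM rather than RPKM, MCL1 took 67.1% of the family on average. The mean RPKM of each member was also taken with library size only, and its mean share with CPM. Of these 20 values, 7 moved by more than the SD over the libraries. BCL2L11 and BCL2 had the fewest counts, down to 134 and 145 in a library.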
